A study of Schizosaccharomyces pombe with 6 samples.

Results

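RNA that co-purified with Red1-FTP was compared with RNA that co-purified with Red5-FTP in the fission yeast Schizosaccharomyces pombe. These were 4 of the 6 arrays of the series, 2 for each bait, and the other 2 carried Mtl1-FTP. The strains were p919 (Red1-FTP), p1160 (Red5-FTP) and p920 (Mtl1-FTP), each with its bait tagged at the carboxy terminus with Flag-TEV-protein A (FTP), and all were grown in the rich medium YEA at the same temperature. By the study's strain list all 3 carried leu1 and ura4 markers, while p1160 was h+ and p919 and p920 were homothallic with another ade6 allele. The list gives the marker natNT2 with the tagged gene of p919 and p920, and names no such marker for p1160. Mating type, ade6 allele and this marker thus cannot be told apart from the Red1-FTP and Red5-FTP baits. Each bait was studied in a single strain. RNA of the tandem affinity purification was labelled with Cy5 and hybridized with Cy3-labelled total RNA of the same strain (the input) on a strand-specific tiling array. Arrays were paired by replicate number, because the Red1-FTP and Red5-FTP arrays of a number shared a slide. The study's methods call the replicates biological. No array of an untagged strain and no dye swap was among the data used, so dye bias and background binding cannot be told apart from bait binding.

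Red1 and Red5 are zinc-finger proteins of the nuclear MTREC complex, which hands RNAs over to the nuclear exosome, the machine that degrades RNA from its 3′ end. Red1 forms the core of the complex with the RNA helicase Mtl1. Red5 belongs to a submodule with the poly(A)-binding protein Pab2 and the RNA-binding protein Rmn1. RNAs destroyed through this route include meiotic mRNAs, which Mmi1 recognizes during vegetative growth, and cryptic unstable transcripts (CUTs), many of which arise antisense to genes or upstream of promoters. A difference between the baits in such an experiment is a difference in the RNA that came along with each of them, not in the amount of the protein.

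The value of a probe was log2 of purified over total RNA signal (log2 Cy5/Cy3) minus the median of its array, so 0 is the typical probe of that array. Values were averaged in 14700 windows of 10 neighbouring probes of the same strand, covering the densely tiled part of the array. Odd-numbered and even-numbered probes lie on opposite strands. The files pair no probe with a gene or a position, so windows are named by their first probe. A spot counted as detected where the scanner software marked it as well above background. Detection of total RNA was similar on the 4 arrays (47.4 and 47.1% of tile probes with Red1-FTP, 48.3 and 49.8% with Red5-FTP). Detection of purified RNA was 63.3 and 57.1% with Red1-FTP and 55.3 and 67.3% with Red5-FTP, so Red1-FTP had more detected probes on slide 1 and fewer on slide 2. The random-sequence probes of the array gave medians of -0.12 and -0.04 with Red1-FTP against -0.06 and -0.50 with Red5-FTP, so at background brightness the slide 2 pair already differed. The part of this in the results on dim probes was not tested.

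The arrays grouped by neither bait nor slide alone. Across all windows, the 2 Red1-FTP arrays correlated with each other at r = 0.81 and the 2 Red5-FTP arrays at r = 0.85. On slide 1, Red1-FTP correlated with Red5-FTP at r = 0.91, and on slide 2 at r = 0.85. The lowest value, r = 0.66, was that of Red1-FTP replicate 2 with Red5-FTP replicate 1, which share neither bait nor slide, whereas the other such pair, Red1-FTP replicate 1 with Red5-FTP replicate 2, was at r = 0.90. The within-slide differences, Red1-FTP minus Red5-FTP, share no array and correlated across windows at r = 0.45 (Spearman 0.43), with the same sign in 68.2% of windows. In windows detected in the input this was r = 0.65, with 76.8% of the same sign. With the normexp background correction and the median centre, in place of the scanner's background subtraction, the slides correlated at r = 0.037 over all windows. These correlations are across windows, which are not independent replicates.

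Red1-FTP carried more of 612 windows than Red5-FTP did and less of 142 (limma with slide as a block, Benjamini-Hochberg adjusted p under 0.05). Of all 14700 windows tested, 4.16% were called higher and 0.966% lower, 5.13% in all. Both counts rest on the slide block, which leaves 1 residual degree of freedom: without it, limma called 0 windows higher and 0 lower, with 433 higher and 104 lower at an unadjusted p under 0.05. The median difference over all windows was 0.15, so the array median as the reference favours higher calls. With the block kept, limma called 0 higher and 0 lower on the deposited value table (1183 and 1242 at an unadjusted p under 0.05) and on signals before dye normalization (1090 and 624), and 21 and 1 with arrays scaled to equal deviations. With the array mean as the reference the median difference was 0.00 and the calls were 72 higher and 75 lower. All 754 called windows kept their sign with that reference. It shifts all windows of an array alike, and by little beside the called differences, so the kept signs are no further support. Of the 612 higher windows 72 kept their call, and of the 142 lower ones 75.

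**Figure D1:**
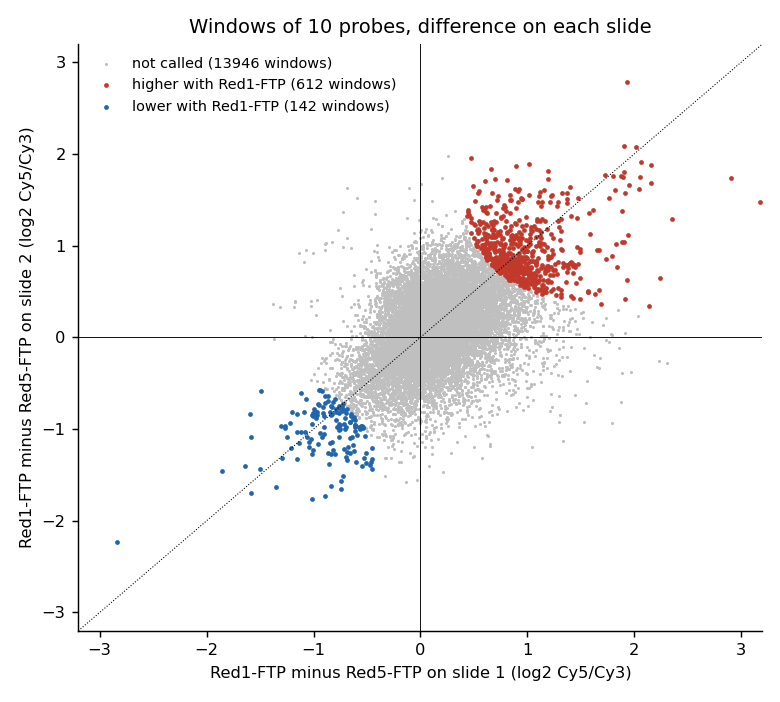
Red1-FTP minus Red5-FTP (log2 Cy5/Cy3) on slide 1 (x axis) and on slide 2 (y axis), 1 point per window of 10 probes, with the dotted line marking equal differences. The 612 windows called higher lie in the upper right, the 142 called lower in the lower left, and the bulk of windows is centred slightly above 0 on both axes.

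Most windows differed little. The middle 90% of windows had differences between -0.46 and 0.73. A mean difference beyond 1 was found in 191 windows upwards and in 42 downwards. Among the 612 higher windows, both Red1-FTP arrays lay above both Red5-FTP arrays in 469, against 25.5% of all windows. Among the 142 lower windows, both Red1-FTP arrays lay below both Red5-FTP arrays in 102, against 8.31% of all windows. The windows were called on differences between these same arrays. Their greater separation is thus built into the choice and is no support for the calls. The 612 higher windows had a median of 1.32 with Red1-FTP, 0.33 with Red5-FTP and 0.65 with Mtl1-FTP. The 142 lower windows had medians of 0.23 with Red1-FTP, 1.19 with Red5-FTP and 0.45 with Mtl1-FTP. The Mtl1-FTP mean was nearer to Red1-FTP than to Red5-FTP in 248 of the higher and in 113 of the lower windows. That count was not taken over all windows, so it shows no trait particular to the called ones.

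In the called windows the larger differences in level were in the purified RNA. In the higher windows the median difference in purified RNA level (each array relative to its own median) was 0.60 on slide 1 and 0.76 on slide 2, while that in total RNA level was -0.11 and -0.03. In the lower windows the purified RNA differed by -0.95 and -0.92 and the total RNA by 0.05 and 0.21. The median ratio differences were 0.91 and 0.87 in the higher and -0.82 and -0.98 in the lower windows. Levels and ratios were centred separately, so the level differences do not add up to these. Of the higher windows, 315 were above the array median on all 4 arrays, 72 were below it on all 4, and 61 were above it on both Red1-FTP arrays and below it on both Red5-FTP arrays. Of the lower windows, 36 were below it on both Red1-FTP arrays and above it on both Red5-FTP arrays. The same counts were not taken over all windows, so they describe the called windows without showing a trait particular to them.

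Windows were then sorted by the input of the Mtl1-FTP arrays, which took no part in the comparison. In the 4322 windows detected there (at least 80% of spots on both arrays, called transcribed here), the median difference was 0.12 and 4.21% were called higher and 1.30% lower. In the 1215 undetected windows (at most 20% of spots) that faced a transcribed window on the other strand, the median difference was 0.29, with 61 windows called higher and 0 lower. In the 674 windows undetected on both strands, the median difference was 0.10, with 6 called higher and 11 lower. The share called higher was close to the 4.16% of all windows in the transcribed class and was 5.02% in the facing class. For the facing windows the slides gave 0.22 and 0.38, and for the windows silent on both strands -0.04 and 0.18. Among higher windows, Mtl1-FTP lay nearer to Red1-FTP in 140 of 182 transcribed and 5 of 6 silent ones. It did so in 9 of 61 facing ones and 94 of 363 in none of these classes. Among lower windows it did so in 41 of 56 transcribed ones, 10 of 11 silent ones and 62 of 75 in none of the classes.

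Transcribed stretches gave a larger-scale view of both strands. A stretch was a run of at least 10 probes of the same strand detected in the input of both Mtl1-FTP arrays, with at most 30% of probes detected on the other strand, and 1447 such runs were found (median 23 probes, longest 139). A stretch is a run of detection, not an annotated gene, and neighbouring transcripts can merge into a single run. On the transcribed strand the mean was 0.02 and -0.01 with Red1-FTP against -0.04 and 0.04 with Red5-FTP, and the difference was 0.07 on slide 1 and -0.05 on slide 2. Averaged over all stretches, the 2 baits thus overlapped on the transcribed strand and differed in opposite directions on the 2 slides. The mean difference over all stretches was 0.0078 with the array median as the centre, -0.14 with the array mean and -0.19 with the random probes, so the sign of a small difference on this strand depends on the centre.

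This average hid a dependence on length, which was looked for after the values were seen. In stretches of 10 to 14 probes, the transcribed strand averaged 0.33 and -0.01 with Red1-FTP against 0.47 and 0.16 with Red5-FTP. In stretches of 60 to 139 probes it averaged -0.80 and -0.18 with Red1-FTP against -1.29 and -0.57 with Red5-FTP. Red1-FTP was thus below Red5-FTP in the shortest class on both slides (by -0.14 and -0.18 as a difference) and above it in the longest (0.50 and 0.39). The intervening classes lay in order between them, with mean differences of -0.14 at 15 to 19 probes, -0.10 at 20 to 24, 0.00 at 25 to 29, 0.18 at 30 to 39 and 0.31 at 40 to 59.

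**Figure D2:**
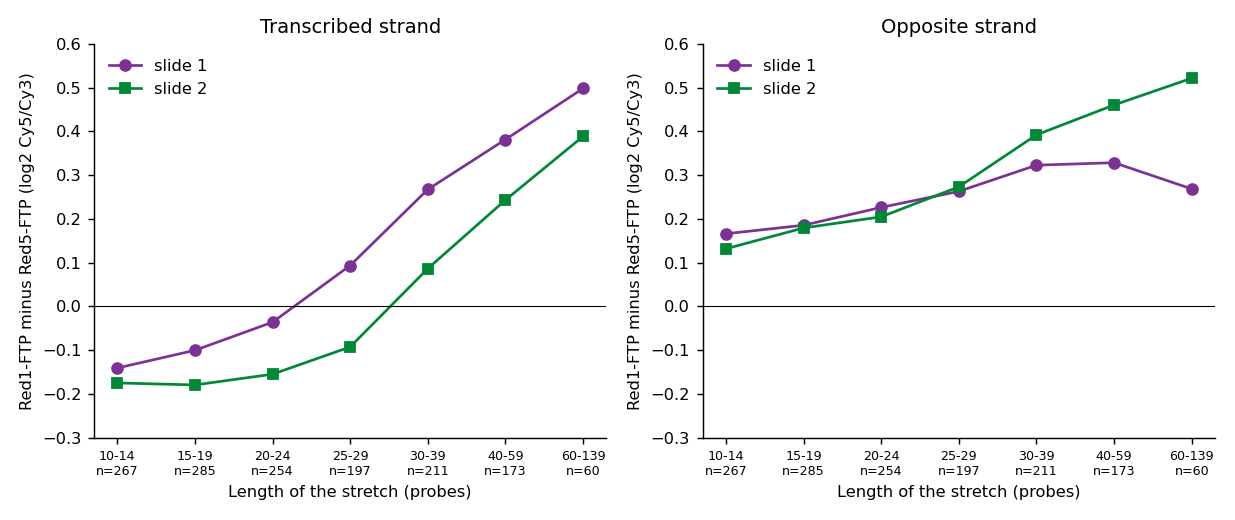
Mean Red1-FTP minus Red5-FTP (log2 Cy5/Cy3) over stretches of each length class, on the transcribed strand (left) and the opposite strand (right), with slide 1 as circles, slide 2 as squares and the number of stretches under each class. On the transcribed strand the difference climbs from -0.14 and -0.18 in the shortest class to 0.50 and 0.39 in the longest, and the opposite strand is above 0 throughout.

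The change with length was a change in purified RNA. Between the shortest and the longest class, the difference in purified RNA level went up from -0.47 to 0.12, while the difference in total RNA level was -0.13 in the shortest and -0.15 in the longest. Single stretches followed the same order. Of the 233 stretches of at least 40 probes, 191 were higher with Red1-FTP on both slides and 14 lower on both. Of the 325 stretches of up to 15 probes, 70 were higher on both slides and 185 lower on both. Over all 1447 stretches, 38.6% were higher on both slides and 40.2% lower on both. In stretches of 40 to 59 probes the ratio differed by 0.31. Their purified RNA level differed by -0.0056 and their total RNA level by -0.14. Levels and ratios were centred separately, so counts by direction, here and in the fit below, rest on the centre of the ratios. In a fit over single stretches (limma, slide block, adjusted p under 0.05), 17.7% of the 1447 stretches were called higher on the transcribed strand and 15.1% lower, 32.8% in all. Of the stretches of at least 40 probes, 122 were called higher and 0 lower, and of those of up to 15 probes, 23 were called higher and 86 lower. Without the slide block, limma called 0 stretches in either direction, with 17 higher and 41 lower at an unadjusted p under 0.05.

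Every array but Red1-FTP replicate 2, where the value was near 0, carried less of long than of short stretches, relative to its own input. Long minus short (at least 40 against up to 15 probes) was -0.82 and -0.01 with Red1-FTP against -1.38 and -0.47 with Red5-FTP, and it was -0.40 and -1.03 with Mtl1-FTP. The baits differed by 0.56 on slide 1 and 0.46 on slide 2, a mean of 0.51 ± 0.07 (SD, n = 2 slides). For a single value like this, flipping the signs of 2 pairs gives an exact two-sided p of 0.5 at best, so this test cannot make a call. Across slides the values overlapped, since Red1-FTP replicate 1 lay below Red5-FTP replicate 2, and the slides differed more within a bait than the baits did within a slide. Any centre of the arrays cancels in this value.

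**Figure D3:**
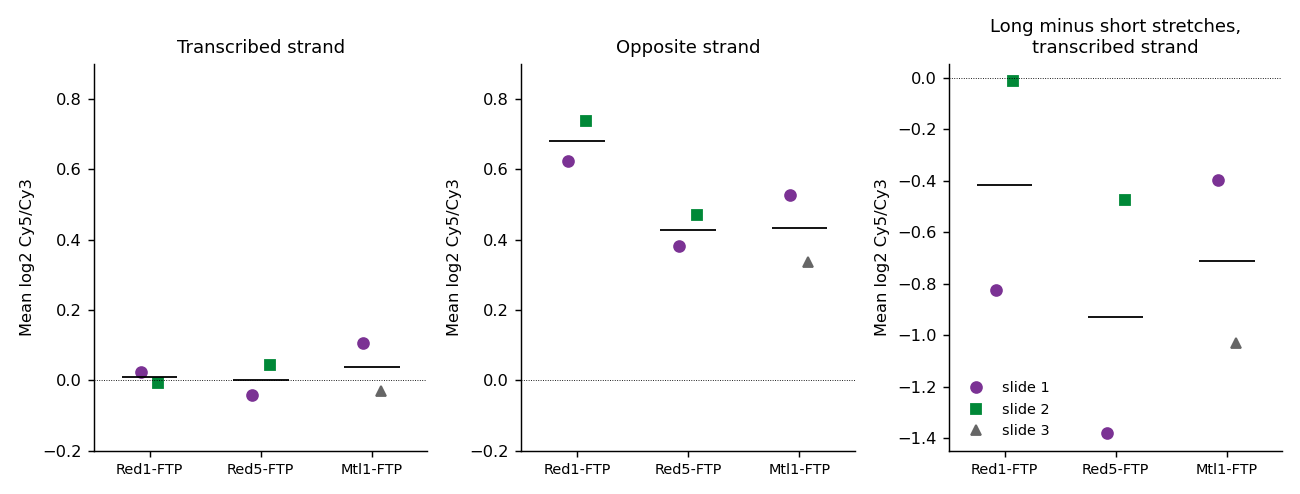
Mean log2 Cy5/Cy3 on each array over 1447 stretches on the transcribed strand (left) and on the opposite strand (middle), and long minus short stretches on the transcribed strand (right), with bars at the mean of a bait. Both Red1-FTP arrays lie above both Red5-FTP arrays on the opposite strand, whereas long minus short is separated by bait only within a slide.

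Length also went with input level (Spearman 0.20 over the stretches), so the contrast was taken within 4 groups of stretches of equal number, by their Mtl1-FTP input level. In the group with the lowest input, long stretches differed by 0.30 between the baits and short stretches by -0.05. In the second group these were 0.35 and -0.21, in the third 0.34 and -0.23, and in the group with the highest input 0.38 and -0.27. Long exceeded short stretches on both slides in each group. Input level in place of length showed no such order, with Spearman correlations with the difference of -0.04 on slide 1 and -0.00 on slide 2, against 0.48 and 0.42 for length.

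The opposite strand of the stretches, where antisense CUTs would be read, lay above 0 in the difference at every length. It averaged 0.62 and 0.74 with Red1-FTP against 0.38 and 0.47 with Red5-FTP, and 0.53 and 0.34 with Mtl1-FTP. Both Red1-FTP arrays lay above both Red5-FTP arrays, by 0.24 on slide 1 and 0.27 on slide 2. Over single stretches, 997 of 1447 were higher on both slides and 89 lower on both, and 16.7% were called higher and 0.415% lower, 17.1% in all (limma, slide block), against 0 calls without the block (129 higher and 1 lower at an unadjusted p under 0.05). In the fit with the block, limma gave all stretches of this strand the same spread, so a stretch's own disagreement between slides did not enter its p. Both Red1-FTP arrays lay above both Red5-FTP arrays in 47.1% of the stretches and below both in 2.42%, against 14.6% and 17.7% on the transcribed strand. The difference was 0.15 in stretches of 10 to 14 probes and 0.40 in those of 60 to 139 probes, and it was 0.20 in the group with the lowest input and 0.36 in that with the highest.

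This strand was dim, and its value depended on how background was treated. Purified RNA was detected at 40.6 and 33.6% of its spots with Red1-FTP against 29.2 and 46.2% with Red5-FTP, so detection favoured Red1-FTP on slide 1 and Red5-FTP on slide 2. With another background correction and loess normalization (normexp and loess), the opposite-strand difference was 0.032. It took opposite signs on the slides with the random probes as the centre (0.29 on slide 1 and -0.19 on slide 2, mean 0.052) and with normexp and the median centre (-0.11 and 0.16, mean 0.026). With spots detected in both channels alone, it was 0.06 on slide 1 and 0.56 on slide 2. The part that the background differences on slide 2 play in it was not tested.

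Opposite minus transcribed strand, a contrast in which any centre of the arrays cancels, differed by 0.17 on slide 1 and 0.32 on slide 2, a mean of 0.25 ± 0.10 (SD, n = 2 slides; exact two-sided p = 0.5 by flipping signs, the smallest possible). It was 0.30 in the 362 shortest stretches and 0.087 in the 362 longest, where the slides gave -0.058 and 0.23. With normexp and the median centre it was -0.32 on slide 1 and 0.40 on slide 2.

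Along the stretches, divided into 10 bins, both strands had a profile. On the opposite strand the difference was 0.18 in the first bin, 0.33 in the fifth and 0.024 in the last, and outside the stretch it averaged near 0. In the 10 probes before the stretch it was -0.0096 and in those after it -0.025, with the slides at 0.07 and -0.08 before and at 0.08 and -0.12 after. On the transcribed strand the difference was 0.056 in the first bin and -0.069 in the last, and lower in the last than in the first on both slides. Which end is the 5′ end of the transcripts is not given by the files.

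**Figure D4:**
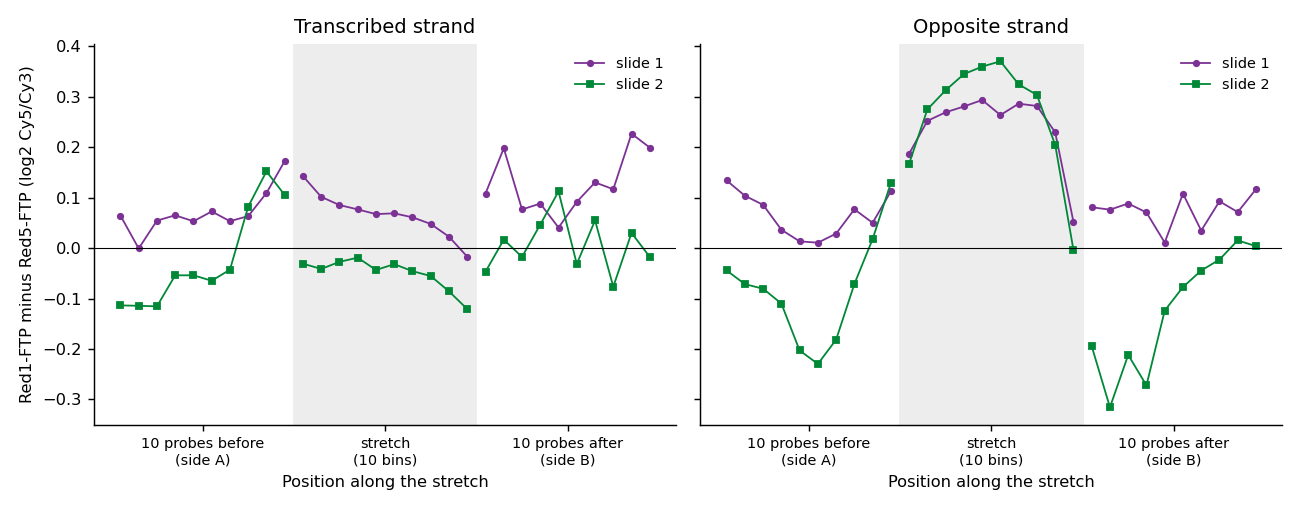
Red1-FTP minus Red5-FTP (log2 Cy5/Cy3) along 1447 stretches in 10 bins (shaded) and over 10 flanking probes on each side where these were silent (586 stretches on side A, 234 on side B), on the transcribed strand (left) and the opposite strand (right), slide 1 as circles and slide 2 as squares. On the opposite strand both slides lie between 0.16 and 0.38 in the first 9 bins and close to 0 in the last, while on the flanks they part.

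Called windows that adjoined on a strand were joined into loci, 385 higher with Red1-FTP and 131 lower. Of the higher loci 264 were single windows and 53 held at least 3, up to 16. Of the lower loci 122 were single windows and the longest held 3. These counts were not tested against each other. Counts of probes by direction within a locus or window, given below, describe how even the difference was along it. The same probes set the call, and neighbouring probes are not replicates, so such counts are no support for it.

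The most extended difference lay on both strands of a single region. On the even strand, probes sp40c_17702 to sp40c_17960 formed a locus of 13 windows. Its strongest window, sp40c_17922, had 1.05 and 1.44 with Red1-FTP against -1.01 and -0.47 with Red5-FTP, and 1.5 and 0.45 with Mtl1-FTP. Red1-FTP and Red5-FTP did not overlap here, and the mean difference was 1.99 ± 0.19 (SE, 3.96-fold, limma adjusted p = 4e-04). Across the locus, 121 of 130 probes were higher with Red1-FTP on both slides, the purified RNA level by 1.04 and 1.12, while the total RNA level was lower by 0.51 and 0.37. All 5 of the strongest higher windows with at least 80% of spots detected in both channels on all 4 arrays were in this locus, with differences between 1.81 and 1.92.

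On the odd strand the same region formed the longest locus of all, 16 windows from sp40c_17681 to sp40c_17999. Its strongest window, sp40c_17961, had -0.63 and -0.81 with Red1-FTP against -2.10 and -1.80 with Red5-FTP, and -0.09 and -0.76 with Mtl1-FTP, a difference of 1.23 ± 0.20 (SE, limma adjusted p = 0.0091). Of 160 probes 159 were higher with Red1-FTP on both slides. This strand was bright, with an input level of 6.01 and 6.13 with Red1-FTP and 6.70 and 6.43 with Red5-FTP above the array medians, on a log2 scale. All 4 arrays were below 0 over the odd-strand locus, so Red1-FTP was here less depleted than Red5-FTP. Across this locus the purified RNA level differed by 0.46 and 0.36 and the total RNA level by -0.69 and -0.30. On slide 1 the larger difference in level was thus in the input. On the even strand Red1-FTP was above and Red5-FTP below the array median.

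**Figure D5:**
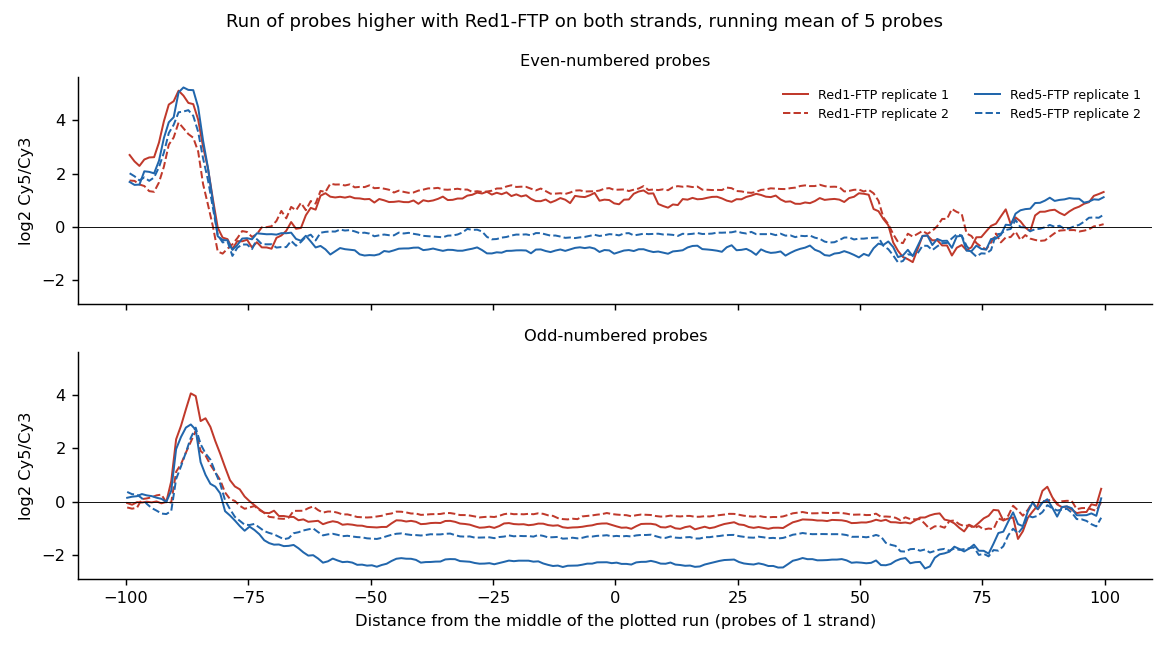
Log2 Cy5/Cy3 as a running mean over 5 probes around the region called on both strands, even-numbered probes above and odd-numbered probes below, Red1-FTP in red and Red5-FTP in blue, with replicate 1 solid and replicate 2 dashed. Both Red1-FTP curves run above both Red5-FTP curves through the whole region on each strand, and the curves meet at its ends.

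The third longest locus, sp40c_71862 to sp40c_72020, held 8 transcribed windows. Its strongest window, sp40c_71942, had -0.58 and 0.20 with Red1-FTP against -1.67 and -0.62 with Red5-FTP, so the groups did not overlap, by a narrow margin (difference 0.95 ± 0.20 SE, limma adjusted p = 0.02). Without the slide block, it was 0.43 on leaving out Red5-FTP replicate 1, 0.56 without Red1-FTP replicate 2 and 1.47 without Red5-FTP replicate 2. Of its 80 probes 78 were higher with Red1-FTP on both slides.

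Several of the largest differences in favour of Red1-FTP fell on windows with few detected input spots. Window sp40c_113941, in a locus of 4 windows, had 1.44 and 1.87 with Red1-FTP against -0.49 and -0.92 with Red5-FTP, and 1.97 and 1.43 with Mtl1-FTP. Its measured difference was 2.36 ± 0.23 (SE), with 32.5% of input spots detected. Window sp40c_53802 had 1.64 and 1.38 with Red1-FTP against -0.52 and -0.50 with Red5-FTP, and 1.09 and 1.1 with Mtl1-FTP (difference 2.02). Window sp40c_53342 had 1.63 and 1.30 with Red1-FTP against -0.09 and -0.48 with Red5-FTP, and 1.12 and 0.95 with Mtl1-FTP (difference 1.75). In these 3 windows the baits did not overlap, Mtl1-FTP lay nearer to Red1-FTP, and purified RNA was detected at 75, 65 and 95% of spots with Red1-FTP but at 40, 10 and 35% with Red5-FTP, so the measured differences rest on background levels of Red5-FTP. Against the background floor of the Red5-FTP arrays, purified RNA was at least 3.48-fold higher with Red1-FTP in sp40c_113941, at least 1.69-fold in sp40c_53802 and at least 2.93-fold in sp40c_53342. These bounds are on purified RNA alone, not on its ratio to the input. The total RNA level differed by 0.26 and 0.0020 in sp40c_113941, by -0.018 and 0.62 in sp40c_53802 and by 0.81 and 0.64 in sp40c_53342.

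Other windows were enriched with both baits and more so with Red1-FTP. Window sp40c_63901 had 4.56 and 5.44 with Red1-FTP against 1.65 and 3.70 with Red5-FTP, and 3.77 and 3.11 with Mtl1-FTP (difference 2.32 ± 0.25 SE). Window sp40c_106822 had 4.39 and 5.03 with Red1-FTP against 1.21 and 3.56 with Red5-FTP, and 2.85 and 2.10 with Mtl1-FTP (difference 2.33 ± 0.31 SE). Window sp40c_64721 had 4.16 and 5.52 with Red1-FTP against 1.81 and 4.23 with Red5-FTP, and 4.30 and 4.09 with Mtl1-FTP (difference 1.82 ± 0.24 SE), and here the baits overlapped. Window sp40c_33202 had 2.52 and 4.16 with Red1-FTP against 0.50 and 2.08 with Red5-FTP, and 3.04 and 2.04 with Mtl1-FTP (difference 2.05 ± 0.19 SE). In these 4 windows, slide 2 was above slide 1 for Red1-FTP and for Red5-FTP, and the gap between baits was 2.91, 3.18, 2.35 and 2.02 on slide 1 and 1.74, 1.47, 1.29 and 2.08 on slide 2. Without the slide block, leaving out Red5-FTP replicate 1 gave 1.30, 1.15, 0.61 and 1.26. Leaving out Red1-FTP replicate 2 gave 1.14 in sp40c_64721 and 1.23 in sp40c_33202, and leaving out Red5-FTP replicate 2 gave 3.50 in sp40c_106822 and 3.03 in sp40c_64721. At each of these 4 loci the other strand also held at least 1 called window. This was not particular to them, since the loci of sp40c_113941, sp40c_71942 and the lower window sp40c_9342 had 1 as well. The share over all loci is not given here.

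Of the 142 windows favoured by Red5-FTP, 56 were transcribed, 11 were undetected on both strands and 75 fell in none of the classes. These classes held 29.4, 4.6 and 57.7% of all windows. The share called lower was 1.30, 1.63 and 0.88% in them, against 0.966% of all windows. The 5 strongest lower windows with at least 80% of spots detected in both channels on all 4 arrays were all transcribed. That filter nearly fixed this, since the transcribed class asks for the same share of input spots on the Mtl1-FTP arrays. Window sp40c_25262 had -0.70 and -0.67 with Red1-FTP against 0.88 and 1.02 with Red5-FTP, and -0.23 and -0.89 with Mtl1-FTP. It was depleted with Red1-FTP and enriched with Red5-FTP on both slides, a difference of -1.64 ± 0.19 (SE, 3.11-fold lower, limma adjusted p = 0.0011), with purified RNA lower by 1.81 and 1.92 and total RNA lower by 0.01 and 0.08. All 10 of its probes were lower with Red1-FTP on both slides.

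Window sp40c_99441 had -0.03 and -0.39 with Red1-FTP against 1.62 and 1.01 with Red5-FTP, and 0.01 and -0.03 with Mtl1-FTP (difference -1.52). It lay in a locus of 3 windows, sp40c_99401 to sp40c_99459, and overlapped the stretch of 15 probes with the most negative difference among all stretches (-1.5 ± 0.14 SE on the transcribed strand). Window sp40c_38862 had 0.46 and -0.10 with Red1-FTP against 1.96 and 1.33 with Red5-FTP, and 0.13 and 0.24 with Mtl1-FTP (difference -1.47). Window sp40c_109322 had -0.33 and -0.68 with Red1-FTP against 0.96 and 0.64 with Red5-FTP, and -0.47 and -0.57 with Mtl1-FTP (difference -1.30). Window sp40c_45381 had 0.19 and -0.37 with Red1-FTP against 1.34 and 0.95 with Red5-FTP, and -0.28 and -0.07 with Mtl1-FTP (difference -1.24). In these 5 windows Red5-FTP was above the array median on both arrays, its arrays did not overlap those of Red1-FTP, and Mtl1-FTP lay near Red1-FTP. The locus sp40c_74622 to sp40c_74680, of 3 windows, was of the same kind, with -0.30 and -0.37 with Red1-FTP against 0.79 and 0.45 with Red5-FTP in its strongest window.

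The largest lower difference was on RNA without a detectable input. Window sp40c_101 had -0.24 and -0.06 with Red1-FTP against 2.61 and 2.17 with Red5-FTP, and -0.07 and -0.08 with Mtl1-FTP, a difference of -2.54 ± 0.21 (SE, limma adjusted p = 0.00036). None of its spots was detected in the input of these 4 arrays (0%) or in the purified RNA of Red1-FTP (0%), against 70% in the purified RNA of Red5-FTP. Against the background floor of the Red1-FTP arrays, purified RNA was at least 1.76-fold higher with Red5-FTP, which is the size these arrays can support.

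Some lower windows were enriched with every bait and most with Red5-FTP. Window sp40c_3341 had 1.08 and 1.01 with Red1-FTP against 2.94 and 2.47 with Red5-FTP, and 0.83 and 0.83 with Mtl1-FTP (difference -1.66). Window sp40c_59822 had 2.07 and 0.87 with Red1-FTP against 3.42 and 2.51 with Red5-FTP, and 1.70 and 1.32 with Mtl1-FTP (difference -1.49). Window sp40c_56221 had 2.92 and 1.54 with Red1-FTP against 3.94 and 3.30 with Red5-FTP, and 2.49 and 2.56 with Mtl1-FTP (difference -1.39). Window sp40c_9342 had 3.27 and 2.19 with Red1-FTP against 4.16 and 3.92 with Red5-FTP, and 1.67 and 1.75 with Mtl1-FTP (difference -1.31). In the last 3 of these the total RNA level was higher with Red1-FTP, by 0.85 and 0.94, by 0.76 and 1.31, and by 0.98 and 1.38 on the 2 slides, more than the purified RNA was lower, so the larger part of the difference in these windows was in the input. Without the slide block, leaving out Red1-FTP replicate 2 gave -0.90, -0.70 and -0.77 in these 3 windows.

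The sparsely tiled part of the array gave 2706 further windows. Of these 6.13% (166) were called higher with Red1-FTP and 0.222% (6) lower, 6.36% in all, with slide as a block in limma. Without the block 1 was called higher and 0 lower, with 158 higher and 3 lower at an unadjusted p under 0.05. Transcribed stretches there held fewer probes, and the difference again varied with their length. Over the 86 stretches of 3 probes it was -0.031 on slide 1 and -0.13 on slide 2, and over the 325 stretches of 9 to 35 probes 0.22 and 0.12. On the opposite strand of the 786 sparse stretches of at least 3 probes it was 0.24 on slide 1 and 0.23 on slide 2. These probes took no part in the dense windows, but they lay on the same 4 arrays.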

How the data were processed

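Agilent tiling arrays with 2 colours, 2 each for Red1-FTP, Red5-FTP and Mtl1-FTP, were analysed. The deposited scanner intensities were made by the authors with Agilent Feature Extraction 10.7.3.1, which subtracted background and dye-normalized each channel (processed signal). The series' deposited log2 value table equals the scanner log ratio except at values set to 0 (54.0 to 63.8% of probes of an array), and it served as an alternative. Per spot, log2 Cy5/Cy3 of processed signals was centred on the median of the non-control spots of its array, outlier spots were left out, copies of a probe were averaged, and windows needed at least 5 of 10 probes. The model was limma 3.58.1 (R 4.3.3), ~ slide + bait on 4 arrays, Benjamini-Hochberg over all windows, threshold 0.05. Slides were read from the arrays' identifiers, and deviations from the bait means correlated at 0.67 between arrays of the same slide. On simulated windows at the observed spread, the windows fit recovered 73 of 100 changes of 1 and 100 of 100 changes of 2 (log2), with 17 false calls among 14500 unchanged windows. The simulated noise was normal and independent between windows, as the model assumes, and unchanged windows were centred on 0. The real windows had a median difference of 0.15, so these rates need not hold for them. The number of arrays limits the precision. Where under 50% of a named window's purified-RNA spots were detected with a bait, a lower bound against the array's dimmest detected probe is given (per channel after Aquantile scaling, open to dye bias).

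Alternatives were the slide block, leaving out arrays, background correction, normalization, spot filters, centring, scale, window size and stretch definition. Named windows were the strongest 8 loci and the longest 3 in each direction, and the strongest 5 in each direction with at least 80% of spots detected. The members, the stretches and the named windows were chosen with earlier results of these data known. Lists of meiotic mRNAs, noncoding RNAs and MTREC subunit genes were not analysed here, because no table used here pairs probes with genes. Genome coordinates and probe sequences were not used here for the same reason.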

Additional observations from a re-analysis of the deposited data

How the results depend on the processing

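None of the 26 named windows changed sign under any alternative that gave it a value. Over all pairs of window and alternative, however, the call was lost in 263 and kept in 188. The windows were picked as extremes of the same values, so their kept sign is little support. The calls rested on the slide block. With no replicate block on 4 or on 6 arrays, limma called 0 windows higher and 0 lower (on 6 arrays 558 and 170 at an unadjusted p under 0.05), with slide as a random block 1 and 1, and on leaving out each of the 4 arrays in turn (no replicate block) between 0 and 0 (155 to 1328 higher and 57 to 691 lower at an unadjusted p under 0.05). With no replicate block the sparse windows gave 1 higher and 0 lower, and single stretches 0 higher and 0 lower on either strand, on 4 and on 6 arrays. Single probes gave 0 calls with the block (14206 higher and 6983 lower at an unadjusted p under 0.05) and 0 without it (5428 and 2381 unadjusted). Windows called higher and lower were 484 and 433 with normexp and loess, 49 and 24 with normexp and the median centre, 0 and 0 on signals before dye normalization (1090 and 624 unadjusted), 871 and 414 with spots detected in both channels, 227 and 124 with spots detected in at least 1, 72 and 75 with the array mean as centre, 21 and 14 with the random probes as centre, 21 and 1 with equal median absolute deviations, 0 and 0 on the value table (1183 and 1242 unadjusted), 313 and 139 with windows of 5 probes, 677 and 111 with windows of 20, 21 and 3 against a log2 threshold of 0.5, and 1440 and 387 with trended, robust eBayes. Of all 754 called windows those tested under normexp, either spot filter, the other centres, equal deviations and trended eBayes kept their sign. These windows were called on large differences of the same arrays. Another centre shifts all windows of an array alike, and trended eBayes leaves the differences unchanged. The kept signs are thus no further support for the calls.

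Opposite minus transcribed strand (0.25) was 0.062 with normexp and loess, 0.042 with normexp and the median centre (-0.32 on slide 1 and 0.40 on slide 2) and 0.47 with spots detected in at least 1 channel, and in the reported setting between 0.17 and 0.32 on single slides. The transcribed strand (0.01) was -0.14 with the array mean as centre, -0.10 on the value table, -0.19 with the random probes as centre and 0.10 in stretches of at least 20 probes, and between -0.05 and 0.07 on single slides. The opposite strand (0.25) was 0.032 with normexp and loess, 0.026 with normexp and the median centre (-0.11 and 0.16 on the slides), 0.29 before dye normalization, 0.31 with spots detected in both channels, 0.47 with spots detected in at least 1, 0.11 with the array mean, 0.31 with equal deviations, 0.092 on the value table, 0.052 with the random probes (0.29 and -0.19) and 0.31 in stretches of at least 20 probes, and in the reported setting between 0.24 and 0.27 on single slides. Long minus short stretches (0.51) was 0.43 with normexp and loess, 0.42 with normexp and the median centre and 0.25 with a single limit at 20 probes, and between 0.46 and 0.56 on single slides. The random-probe centre, and long minus short and single stretches with all their settings, were chosen after seeing the data. The cause of these changes was not tested. Low signal over background limits the values of the opposite strand.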

Other observations

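Some single stretches outside the loci of the named windows were among the 3 most extreme in a direction on a strand, and they were picked after their values were seen. The stretch sp40c_134180 to sp40c_134210 had 1.21 and 1.25 with Red1-FTP against -1.01 and 0.43 with Red5-FTP, and -0.01 and -1.23 with Mtl1-FTP on its transcribed strand. The stretch sp40c_29358 to sp40c_29388 had -0.42 and -0.25 with Red1-FTP against 1.17 and 0.67 with Red5-FTP, and -0.11 and -0.20 with Mtl1-FTP. The opposite strand of the stretch sp40c_44060 to sp40c_44112 had 1.92 and 3.08 with Red1-FTP against 0.52 and 1.59 with Red5-FTP, and 1.28 and 1.64 with Mtl1-FTP. On the transcribed strand of the stretch starting at sp40c_91379, the values were -0.40 and -1.02 with Red1-FTP against 0.78 and 0.14 with Red5-FTP, and -0.47 and -0.30 with Mtl1-FTP. The lowest opposite-strand differences were smaller in size, -0.67 at the stretch starting at sp40c_98314, -0.66 at sp40c_16961 and -0.54 at sp40c_13917.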
